A study of Rattus norvegicus with 18 samples.

Results

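Bone next to a scaffold that carried calcium phosphate microparticles (CaP) was compared with bone next to a bare polycaprolactone (PCL) scaffold at week 6 after implantation. The comparison holds 6 of the 18 libraries of the series, 3 per scaffold, and they were chosen by their column names in the deposited count table, which give scaffold, replicate and week. The study placed 3D-printed scaffolds in a critical-size defect of the rat radius, a gap too wide to close unaided. It compared CaP, bare PCL and another scaffold with amorphous calcium phosphate chitosan nanoparticles (ACPC-NP), each with 3 libraries at week 2 and 3 at week 6. All animals are labelled WT. The sources used here do not give strain, age or sex, and the labels do not say whether the libraries of a group came from separate rats. The p-values therefore measure the spread between libraries, which may be technical in part. Polyadenylated RNA was read from cells of bone and marrow that had been freed up to 1 mm away from the scaffold ends, after red cell lysis and collagenase digestion.

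Bone repair depends on osteoblasts, which lay down a collagen I matrix and mineralise it, and on osteoclasts, large cells fused from monocyte precursors that dissolve mineral and matrix. Osteoblasts and stromal cells steer osteoclasts through the ligand RANKL (Tnfsf11) and its decoy receptor osteoprotegerin (Tnfrsf11b). Calcium phosphate ceramics resemble bone mineral and release calcium and phosphate ions, which cells take up and sense, whereas PCL is a slowly degrading polyester without mineral. Macrophages and other marrow cells meet both materials and shape the inflammation around them.

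No gene was called different between the CaP and PCL scaffolds at week 6. Of 11814 genes tested with edgeR's quasi-likelihood test, 0 passed a Benjamini-Hochberg adjusted p of 0.05, a background share of 0%. The smallest adjusted p was 0.9998. At an unadjusted p under 0.05 there were 304 genes (2.57%), of which 108 were higher around CaP (0.914%) and 196 were lower (1.66%). An equal spread of p-values would put 591 genes there. DESeq2 also called 0 genes, with 352 at that unadjusted level, and limma's voom with sample weights called 0, with 2064. Without PCL replicate 1 the edgeR count was 1 gene called and 1274 at an unadjusted p under 0.05. Without PCL replicate 2 there were 156 at that unadjusted level, and without PCL replicate 3 there were 198, with 0 called in both.

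**Figure D1:**
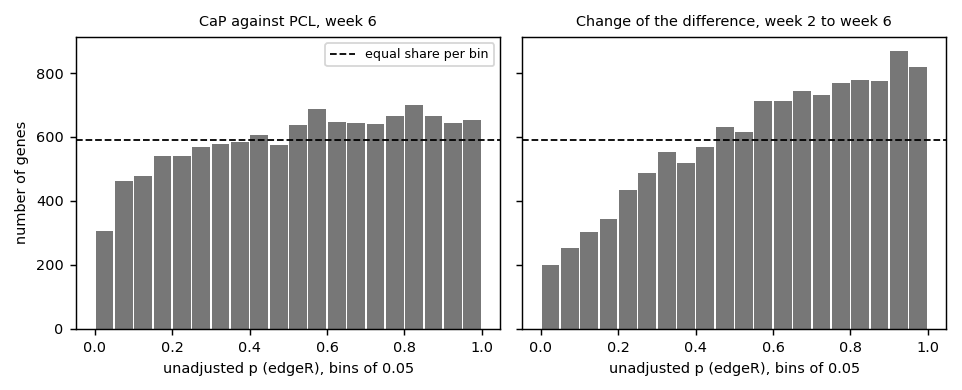
Number of genes per bin of unadjusted p (edgeR) for CaP against PCL at week 6 (left) and for the change of that difference from week 2 to week 6 (right), with a dashed line at the count each bin would hold if p-values were spread evenly. In both panels the lowest bin lies under the line, with 304 genes on the left and 198 on the right.

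A missed threshold does not show that the scaffolds act alike, so the intervals of the differences are given. Log2 differences are CaP minus PCL throughout. Their standard error (SE) was worked out from the difference and the quasi-likelihood F statistic of its test. The SE and the intervals are therefore approximate. The median size of the difference was 0.129 and the median SE 0.21. The 95% interval lay within 1 log2 unit of 0 (a doubling or halving) for 8736 genes, or 73.9%, and within 2 units for 11024, or 93.3%. Among 5478 genes with a mean log2 CPM (counts per 1000000 counts of the library) of at least 5, the share within 1 unit was 91.6%. The data therefore bound most abundant genes closely, while for some scarce or variable genes the intervals leave room for a difference of several fold.

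The libraries themselves did not sort by scaffold. They held 20686683 to 27186587 counts. The root mean square log2 distance between a CaP and a PCL library averaged 0.575 (0.468 to 0.66, 9 pairs), and between libraries of the same scaffold 0.597 (0.501 to 0.661, 6 pairs). The first principal component held 32.6% of the variance and set CaP replicate 1 (-27.37) and PCL replicate 1 (-36.09) apart from the other libraries (8.26 to 29.46). The second, with 24.8%, set CaP replicate 2 apart at -43.55, against -2.17 to 16.63. These libraries return below: CaP replicate 2 held the least stromal and vessel RNA, and replicate 3 of both scaffolds held cartilage RNA. As the samples are bulk, fewer cells of a type and less RNA per cell cannot be told apart.

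In the same fit, ACPC-NP against PCL at week 6 had 21.9% of genes at an unadjusted p under 0.05, and ACPC-NP against CaP had 9.34%, again with 0 called in each. These comparisons share the PCL and CaP libraries with the one described here.

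The genes named next have the smallest unadjusted p in each direction among genes with a mean log2 CPM of at least 1 and ranges that do not overlap between the scaffolds. Ranges were apart for 1051 of the 11814 genes (8.9%), 471 with CaP above (3.99%) and 580 with CaP below (4.91%). None of these genes passed the test. As ranges apart and small p chose the genes named, their separation and their 95% intervals, not adjusted for that choice, are description only. Among those higher around CaP, Atg4b, a protease that processes ATG8 proteins in autophagy, read 72.4, 65.5 and 77 CPM around CaP and 45.2, 55.3 and 49.9 CPM around PCL. Its log2 difference was 0.51 ± 0.14 (SE). Wnt5a, a ligand of non-canonical Wnt signalling that osteoblast-lineage cells make, read 4.94, 3.48 and 12.1 CPM around CaP and 1.63, 0.713 and 2.29 CPM around PCL. Every CaP library was above every PCL library, and the log2 difference of 2.14 ± 0.62 had a 95% interval of 0.83 to 3.45. The other 8 had log2 differences of 0.33 (Rfng, a glycosyltransferase that modifies Notch) to 0.90 (Lyplal1), and they include Sirt3, a mitochondrial deacetylase (0.43 ± 0.15), Cytip, a cytohesin partner of leukocytes (0.35 ± 0.12), and Cd7, a T and NK cell antigen (0.52 ± 0.18). Pter (0.66), Slc46a3 (0.48) and Chchd5 (0.70) complete them.

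Among the genes lower around CaP, Cldn12, a claudin, had the smallest unadjusted p of the 20 genes, 0.000293. It read 14.5, 15.4 and 17.2 CPM around CaP and 20.9, 21.5 and 25.5 CPM around PCL, a log2 difference of -0.53 ± 0.11. Sepp1, which encodes the selenium carrier selenoprotein P, read 134, 124 and 138 CPM around CaP. Around PCL it read 239, 201 and 200 CPM, so each CaP library was below each PCL library, with a log2 difference of -0.69 ± 0.18 and a 95% interval of -1.08 to -0.30. Apc, a scaffold of the complex that degrades beta-catenin, had -0.40 ± 0.13, and Nf2, the tumour suppressor merlin upstream of Hippo signalling, had -0.30 ± 0.09. The splicing factor kinase Srpk1 (-0.30), the RNA polymerase III subunit Polr3e (-0.30), Pigm, which acts in glycosylphosphatidylinositol anchor synthesis (-0.31), Zbtb44 (-0.39), Dcun1d4 (-0.47) and Mllt11 (-0.53) lay in the same range. Apart from Wnt5a, these differences were all under 1 log2 unit.

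**Figure D2:**
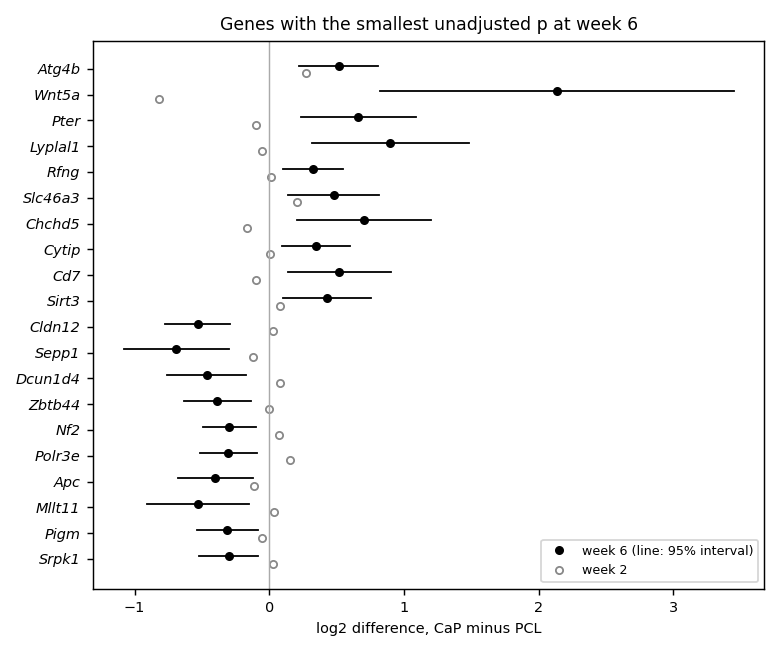
Log2 difference, CaP minus PCL, at week 6 (filled points, lines show the 95% interval) and at week 2 (open points) for the 20 genes with the smallest unadjusted p at week 6. The genes also had to have ranges apart, and the intervals are not adjusted for that choice. Wnt5a stands out by the size of its difference and the width of its interval, 0.83 to 3.45, and its week 2 point lies below 0.

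No osteoblast gene was called different between the scaffolds. Of 15 tested members of the osteoblast list, 11 were above 0 and 0 were called, with a median log2 difference of 0.183. Over all genes 46.4% were above 0 and the median was -0.015. Runx2, the transcription factor that commits cells to the osteoblast fate, was bounded closely. It read 39.4, 35.9 and 37.4 CPM around CaP and 41.1, 29.8 and 26.5 CPM around PCL. The ranges overlap, and the log2 difference of 0.21 ± 0.14 had an interval of -0.09 to 0.52. Col1a1, the main chain of bone collagen, read 6561, 6660 and 13580 CPM around CaP and 8338, 9855 and 6722 CPM around PCL. CaP replicate 3 was the highest library and CaP replicate 1 the lowest, and the difference was 0.11 ± 0.40. Without CaP replicate 3 it was -0.33.

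Genes of matrix mineralisation followed the same pattern. Alpl, the phosphatase that frees phosphate for mineral, read 71.8, 124 and 149 CPM around CaP and 138, 65.6 and 99.5 CPM around PCL (0.18 ± 0.27). Bglap (osteocalcin) read 192, 144 and 437 CPM around CaP and 165, 287 and 226 CPM around PCL (0.19 ± 0.42). Ibsp (bone sialoprotein) read 39, 34.5 and 193 CPM around CaP and 44.6, 75 and 100 CPM around PCL (0.28 ± 0.66). In each of these genes CaP replicate 3 held the highest value of the 6 libraries. Without it the differences were -0.05 for Alpl, -0.43 for Bglap and -1.0 for Ibsp, and the osteoblast list had 3 of 15 members above 0 with a median of -0.431. That library also held the most cartilage RNA, whose part in these values was not tested. Sp7, the osteoblast transcription factor osterix, had -0.09 ± 0.42, and Bmp2, an osteogenic ligand, -0.13 ± 0.64.

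Osteopontin (Spp1), a phosphoprotein of bone matrix that macrophages and osteoclasts also make, read 1862, 385 and 643 CPM around CaP and 797, 417 and 308 CPM around PCL. CaP replicate 1 was far above the others, while CaP replicate 2 was below PCL replicate 2, and the difference of 0.93 ± 0.59 had an interval of -0.32 to 2.18. Osteocyte genes were scarce. The osteocyte list, 7 tested genes, summed to 16.9 to 59.93 CPM around CaP and 27.68 to 46.16 CPM around PCL, with a median difference of -0.058. Sost (sclerostin, a Wnt inhibitor of osteocytes) was under 1 CPM in all 6 libraries and had -0.99 ± 0.66. Col1a2 read 0.104 to 0.522 CPM in the 6 libraries, far below its partner chain Col1a1, so the counts of this symbol give no measure of collagen I. It is among the members above 0 in the osteoblast and collagen chain lists.

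**Figure D3:**
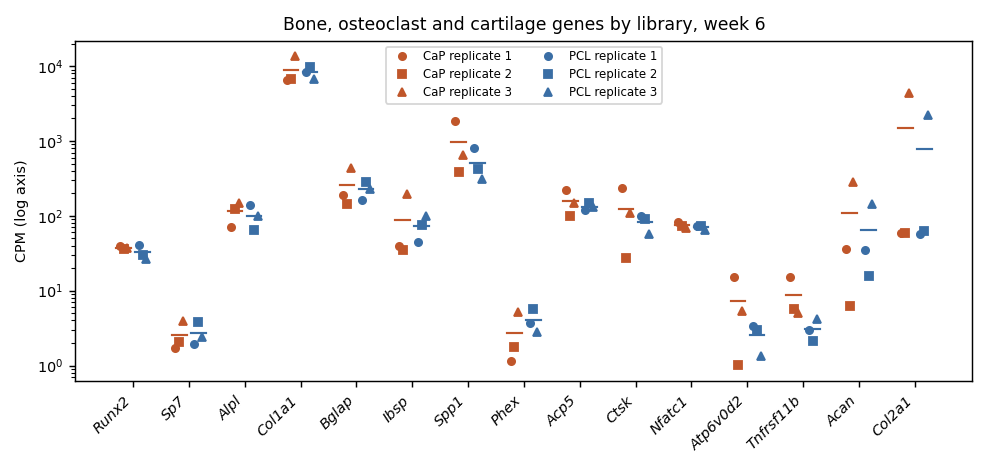
CPM (log axis) of bone, osteoclast and cartilage genes in each library at week 6, with CaP in orange and PCL in blue, a symbol for each replicate number and a short line at each group's mean. The scaffolds overlap for every gene except Tnfrsf11b, and the triangles of Acan and Col2a1 show the high cartilage reading in replicate 3 of both scaffolds.

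Osteoclast genes leaned towards CaP without passing the test. Of 14 tested members, 12 were above 0 and 0 were called, with a median of 0.192. Acp5, the tartrate-resistant phosphatase of osteoclasts, read 219, 99.3 and 148 CPM around CaP and 118, 148 and 133 CPM around PCL (0.22 ± 0.29). Ctsk (cathepsin K), which cleaves bone collagen, read 239, 27 and 108 CPM around CaP and 100, 91.8 and 57 CPM around PCL (0.59 ± 0.61). CaP replicates 1 and 2 were the highest and the lowest of the 6 in both genes. Atp6v0d2, a proton pump subunit needed for precursor fusion, read 15.4, 1 and 5.36 CPM around CaP and 3.39, 3.01 and 1.36 CPM around PCL (1.49 ± 0.78). The fusion-related lectin Siglec15 had 1.13 ± 0.60, and Tnfrsf11a, the receptor RANK, had 0.86 ± 0.55. Without CaP replicate 1 the list median was 0.035 with 9 of 14 above 0, Ctsk was -0.29, Acp5 -0.10, Atp6v0d2 0.30, Siglec15 0.20 and Tnfrsf11a 0.0086. Nfatc1, the master regulator of osteoclast differentiation, was bounded closely, with 0.10 ± 0.12 and an interval of -0.15 to 0.35.

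Among the factors by which bone cells act on osteoclasts, Tnfrsf11b, the decoy receptor that binds RANKL, read 15.4, 5.71 and 4.98 CPM around CaP and 2.94, 2.14 and 4.16 CPM around PCL. Each CaP library was above each PCL library. The log2 difference was 1.503 ± 0.59, with an unadjusted p of 0.0225 by edgeR's quasi-likelihood test, and it did not pass the adjusted threshold. Without CaP replicate 1 it was 0.80. At week 2 it was 1.23 ± 0.61. Sphk1, which makes sphingosine 1-phosphate, an osteoclast signal to osteoblasts, read 17.9, 15.4 and 21.3 CPM around CaP and 13.1, 11.2 and 15.2 CPM around PCL (0.47 ± 0.20). The list of ligands and coupling factors as a whole had 5 of 12 members above 0 and a median of -0.101. The RANKL gene Tnfsf11 and Tnf were listed at 0 in all 18 libraries, so the balance of RANKL to osteoprotegerin could not be read.

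Of the genes that handle calcium and phosphate, the ions that set the scaffolds apart, 9 of 18 tested members were above 0. In that list 0 were called and the median was 0.028. Ranges were apart for 3 members, all with CaP below, beside 4.91% of all genes. Ankh, an exporter linked to pyrophosphate, read 144, 70 and 66.5 CPM around CaP and 75.3, 59.4 and 57.5 CPM around PCL (0.54 ± 0.27). Cyp27b1, which makes active vitamin D, was at the lower edge of detection, at 0.382, 0.305 and 0.617 CPM around CaP and 0.735, 1.27 and 0.849 CPM around PCL. Its ranges were apart and its log2 difference was -1.13 ± 0.38, with an unadjusted p of 0.00984 in the edgeR fit. The vitamin D receptor Vdr read 3.02, 2.4 and 3.42 CPM around CaP and 4.98, 4.35 and 3.69 CPM around PCL (-0.56 ± 0.35). In the list of calcium entry and calcineurin signalling, 6 of 21 members were above 0 with a median of -0.065. Its members with the smallest p went in opposite directions, with Rcan1, a calcineurin inhibitor, at 0.48 ± 0.20 and Itpr3, a calcium release channel, at -0.53 ± 0.25.

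Cartilage RNA was high in replicate 3 of both scaffolds. Col2a1, the collagen of cartilage and a gene chosen here after its values were seen, read 58.5, 58.9 and 4390 CPM around CaP and 57.6, 62.6 and 2195 CPM around PCL. Acan, the cartilage proteoglycan aggrecan, read 36.2, 6.23 and 286 CPM around CaP and 35.4, 15.8 and 145 CPM around PCL. In both genes replicate 3 of each scaffold was far above the other 4 libraries, and the differences were 0.96 ± 1.81 and 0.74 ± 1.27. The cartilage list summed to 6398 CPM in CaP replicate 3 and 3189 CPM in PCL replicate 3, against 284.7 to 395.9 CPM elsewhere. Its 13 of 14 members above 0 and its median of 0.667, the highest of the 52 lists, rest on those 2 libraries. Without CaP replicate 3 the median was -2.561, and without PCL replicate 3 it was 2.334.

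Genes of vessels and their supporting cells were lower around CaP on balance, with no member called. Of 17 tested endothelial genes, 0 were above 0 and the median was -0.347. Pecam1, an adhesion molecule of endothelial junctions and platelets, read 50.6, 70.7 and 76.2 CPM around CaP and 76.9, 78.3 and 80.1 CPM around PCL (-0.25 ± 0.35). Tie1, an endothelial receptor kinase, read 99.3, 88.5 and 96.6 CPM around CaP and 113, 109 and 101 CPM around PCL (-0.18 ± 0.15). These were the 2 genes of the list whose ranges were apart, beside 4.91% of all genes with CaP wholly below. Kdr, the main receptor for VEGF, read 16.8, 7.67 and 19.3 CPM around CaP and 24.1, 27.4 and 11.6 CPM around PCL (-0.53 ± 0.45). CaP replicate 2 was lowest there, and it had the lowest summed endothelial level, 297.9 CPM, with the other CaP libraries at 454 and 473.9 CPM and PCL at 378.4 to 603.9 CPM. Without that library 3 of 17 genes were above 0 and the median was -0.13. Vegfa itself had -0.43 ± 0.63.

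For pericytes and smooth muscle, 1 of 12 genes was above 0 and the median was -0.727. CaP replicate 2 again had the lowest sum, 55.67 CPM, against 201.8 and 102.3 CPM in the other CaP libraries and 83.28 to 174.3 CPM around PCL. Without it the median was -0.415, with 3 of 12 above 0. The one gene above 0 was Cspg4, the NG2 proteoglycan, at 82.5, 20.1 and 29.3 CPM around CaP and 19.6, 16.9 and 16 CPM around PCL (1.33 ± 0.61). Its ranges were apart, with CaP replicate 1 far above the rest. Skeletal muscle genes had 5 of 16 above 0 and a median of -0.251. Without CaP replicate 2 these were 11 of 16 and 0.089. Their sum was lowest in that library too, at 85.68 CPM against 152.6 to 293.5 CPM in the other 5. The low vessel, perivascular and muscle readings thus moved together in that library, and the part of each in the others was not tested.

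Schwann cell and myelin genes formed the only list of the 52 whose library scores did not overlap between the scaffolds. A library's score is the average of its members' log2 CPM, each gene first centred on its mean, and it ran from -1.012 to -0.149 around CaP and from 0.065 to 0.947 around PCL. Of 13 genes, 2 were above 0, 0 were called, 4 had an unadjusted p under 0.05 with CaP lower (1.66% of all genes) and the median log2 difference was -0.743. The summed level of the list did overlap, at 336.3 to 425.1 CPM around CaP and 355 to 535.9 CPM around PCL. Summed levels were apart, with CaP below, for calcium entry and calcineurin signalling (2939 to 3016 against 3106 to 3182 CPM). The same held for chemokines and receptors (2251 to 2531 against 2644 to 3484 CPM) and Wnt signalling (550.4 to 594.4 against 609.2 to 647.4 CPM). Mbp, myelin basic protein, read 43.6, 36 and 43.5 CPM around CaP and 72.2, 61.1 and 38.3 CPM around PCL (-0.48 ± 0.19). PCL replicates 1 and 2 were above every CaP library, while PCL replicate 3 lay inside the CaP range. Prx, a Schwann cell protein of the myelin sheath, had -1.06 ± 0.44, and Sox10, the transcription factor of the glial lineage, had -1.80 ± 0.81 but was under 1.4 CPM in all 6 libraries. Without CaP replicate 2 the median was -0.595 with 4 of 13 above 0, and without PCL replicate 2 it was -0.41 with 2 of 13. At week 2 the list median was -0.07.

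**Figure D4:**
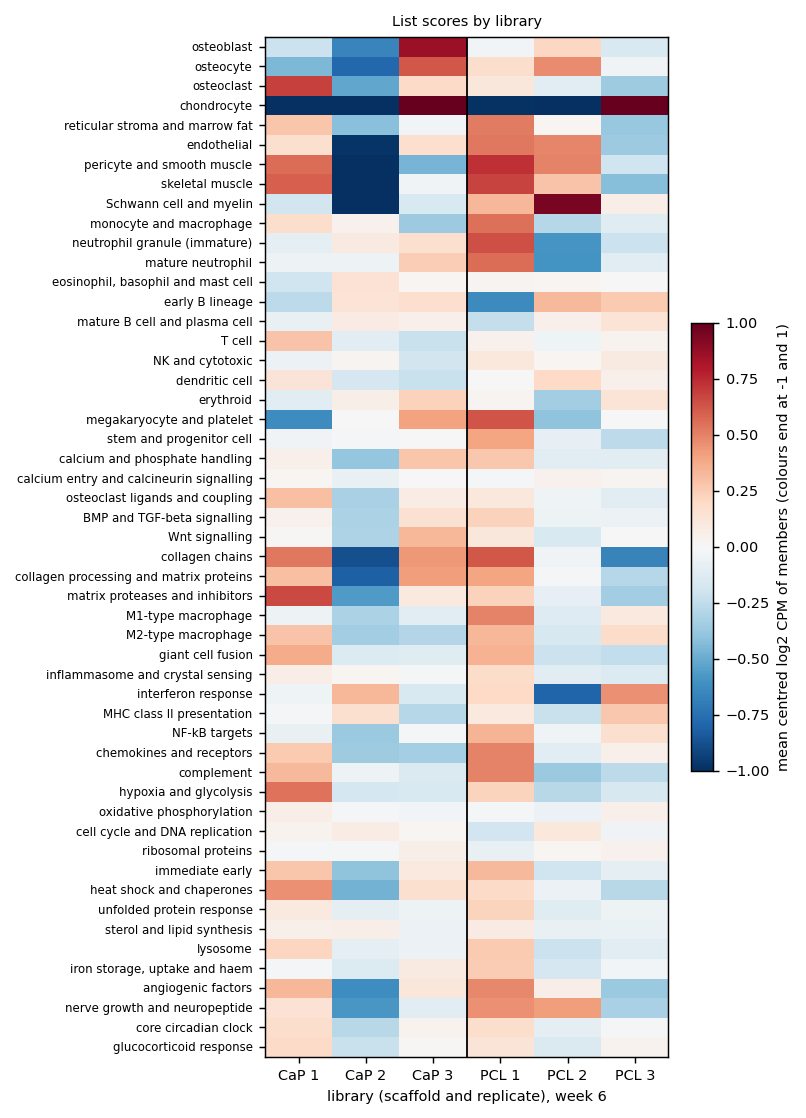
Score of each of the 52 gene lists (rows) in each library (columns, a black line parts CaP from PCL): the average log2 CPM of the members, centred per gene, in red where above and blue where below the mean of the 6 libraries. The columns differ as much within a scaffold as between them, with CaP 2 low on vessel, muscle and collagen lists, PCL 1 high on myeloid lists and replicate 3 of both scaffolds high on the cartilage list, while the Schwann cell list alone has all CaP libraries below all PCL libraries.

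Matrix and growth factor genes were mixed. Collagen chains had 9 of 14 members above 0 (median 0.076) and matrix proteases with their inhibitors 17 of 24 (median 0.183), with 0 called in each. With 1 library left out, the medians were lowest without CaP replicate 1 (-0.398 and -0.116) and highest without PCL replicate 1 (0.374 and 0.523). Mmp3 (stromelysin 1) read 87.9, 26.4 and 9.77 CPM around CaP and 3.59, 10.2 and 10.1 CPM around PCL. CaP replicates 1 and 2 were high and CaP replicate 3 lay inside the PCL range, and the difference was 2.38 ± 0.95. Fibronectin (Fn1), an early repair matrix protein, read 7147, 3091 and 3130 CPM around CaP and 4468, 2220 and 1937 CPM around PCL (0.63 ± 0.37). Collagen processing and matrix protein genes had 16 of 26 above 0 and a median of 0.046.

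In the Wnt list 11 of 23 members were above 0 (median -0.038). Beside Wnt5a, the secreted Wnt antagonist Sfrp4 had ranges apart, at 24.9, 9.8 and 13 CPM around CaP and 7.47, 8.23 and 5.31 CPM around PCL (1.18 ± 0.54). Axin2, a feedback target of beta-catenin signalling, was lower in each CaP library, at 14.6, 16.6 and 15.6 CPM against 18.7, 18.7 and 22.4 CPM around PCL (-0.36 ± 0.22). In the BMP and TGF-beta list 6 of 30 were above 0 (median -0.122). Tgfb1, a factor stored in bone matrix, had -0.10 ± 0.19. Tgfb2 read 12.9, 2.18 and 3.18 CPM around CaP and 2.57, 2.06 and 2.38 CPM around PCL (1.39 ± 0.59), a difference carried by CaP replicate 1. Stromal and marrow fat genes had 8 of 16 above 0 (median -0.008). Within them Apoe, a lipid carrier, read 652, 301 and 452 CPM around CaP and 1160, 687 and 800 CPM around PCL (-0.91 ± 0.50), and Cxcl12, the chemokine that holds stem cells in the marrow, had -0.79 ± 0.52. The nerve growth and neuropeptide list had 4 of 12 above 0 and a median of -0.512. Angiogenic factors had 10 of 18 above 0 and a median of 0.043.

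In the list of NF-kB targets 2 of 15 genes were above 0, 0 were called and the median was -0.218. Nfkb1, the NF-kB subunit p50 and its precursor, read 484, 493 and 502 CPM around CaP and 578, 673 and 840 CPM around PCL (-0.50 ± 0.27). All CaP libraries were below all PCL libraries. Of 28 chemokines and chemokine receptors, 10 were above 0, 0 were called, the median was -0.351, and 8 had CaP ranges wholly below PCL, beside 4.91% of all genes tested. The monocyte attractant Ccl7 read 15.1, 16.2 and 15.8 CPM around CaP and 58.7, 19.6 and 25.7 CPM around PCL (-1.14 ± 0.64). The neutrophil attractant Cxcl1 read 43.5, 52.1 and 70.8 CPM around CaP and 174, 89.7 and 106 CPM around PCL (-1.15 ± 0.89). In both genes PCL replicate 1 was the highest library. Cxcl10, an interferon-induced attractant of T cells, had -0.67 ± 0.54, and Ccl2, another monocyte attractant, had -0.79 ± 0.61. Without PCL replicate 1 the chemokine median was -0.027, with 14 of 28 above 0, and the NF-kB median was -0.182, with 5 of 15. Without CaP replicate 2 the NF-kB median was -0.085, with 6 of 15 above 0.

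No macrophage gene was called different. The monocyte and macrophage list had 7 of 16 above 0 (median -0.054), the list of M1-type genes 4 of 15 (-0.225) and that of M2-type genes 5 of 14 (-0.156). Without PCL replicate 1 these were 12 of 16 (0.298), 7 of 15 (-0.07) and 6 of 14 (-0.101). Cd68, a lysosomal protein of macrophages, read 319, 153 and 158 CPM around CaP and 233, 114 and 137 CPM around PCL (0.38 ± 0.34). Csf1r, the receptor for the macrophage growth factor, had 0.47 ± 0.27. Mrc1, the mannose receptor of M2-type macrophages, read 44.6, 59.4 and 53.4 CPM around CaP and 117, 62.2 and 72 CPM around PCL. Its ranges were apart with CaP lower, and the difference was -0.68 ± 0.39.

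Cytokines of the panel had wide intervals, which rest on a spread estimated over all 18 libraries. Il1b, the main inflammasome product, read 570, 534 and 990 CPM around CaP and 949, 664 and 801 CPM around PCL (-0.21 ± 0.77, interval -1.84 to 1.43). Il6, an acute cytokine, read 3.23, 4.53 and 5.12 CPM around CaP and 11, 8 and 5.26 CPM around PCL (-0.92 ± 0.93). Il6 was lower in each CaP library by ranges that nearly touch. Nos2, the inducible nitric oxide synthase, had 0.09 ± 0.82, Arg1, arginase, -0.84 ± 1.12, and the anti-inflammatory Il10 had -0.15 ± 0.86. The inflammasome and crystal-sensing list, which bears on uptake of mineral particles, had 7 of 18 above 0 and a median of -0.034, with its adaptor Pycard at 0.44 ± 0.23 and the protease Casp1 at 0.21 ± 0.17. The list of giant cell fusion had 8 of 14 above 0 (median 0.141) and complement 12 of 19 (0.138).

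The neutrophil lists moved with single PCL libraries. Immature neutrophil granule genes had 5 of 14 above 0 (median -0.052) and mature neutrophil genes 9 of 14 (0.063). Without PCL replicate 1 these were 14 of 14 (0.491) and 13 of 14 (0.432), and without PCL replicate 2 they were 2 of 14 (-0.252) and 0 of 14 (-0.165). Lcn2, the iron-binding lipocalin of neutrophil granules, read 1073, 1013 and 689 CPM around CaP and 123, 391 and 792 CPM around PCL (1.09 ± 0.51), with PCL replicate 1 the lowest. Prtn3, proteinase 3 of primary granules, read 68.2, 65.7 and 59.5 CPM around CaP and 206, 63.8 and 57.6 CPM around PCL (-0.76 ± 0.45). There PCL replicate 1 was the highest, and without it the difference was 0.09. Eosinophil, basophil and mast cell genes had 9 of 16 above 0 (0.082, and 0.474 without PCL replicate 1), megakaryocyte genes 4 of 10 (-0.089) and stem and progenitor genes 5 of 11 (-0.115).

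Early B lineage genes had 5 of 14 above 0 and a median of -0.086, which was -0.389 without PCL replicate 1. Vpreb1, a part of the surrogate light chain, read 15.6, 16.8 and 20.9 CPM around CaP and 10.2, 12.5 and 9.72 CPM around PCL (0.72 ± 0.28), and Dntt, the terminal transferase of lymphoid progenitors, read 115, 85.8 and 88.6 CPM around CaP and 47, 77.7 and 62.4 CPM around PCL (0.63 ± 0.33). Both had all CaP libraries above all PCL libraries, beside 3.99% of all genes, and were the only members of the list with ranges apart. At week 2, 0 of the 14 early B lineage genes were above 0 (median -0.227). Mature B and plasma cell genes had 7 of 15 above 0 (-0.009), T cell genes 7 of 19 (-0.034), NK and cytotoxic genes 4 of 16 (-0.16), dendritic cell genes 5 of 13 (-0.23), MHC class II genes 3 of 9 (-0.188) and interferon response genes 12 of 24 (-0.005). Zbtb46, a transcription factor of conventional dendritic cells, read 1.74, 1.22 and 1.76 CPM around CaP and 2.33, 2.89 and 1.82 CPM around PCL (-0.58 ± 0.26).

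Erythroid genes had 14 of 20 above 0 and a median of 0.129, and without PCL replicate 2 these were 9 of 20 and -0.007. Their 3 members with ranges apart, all with CaP above (3.99% of all genes), include Epor, the erythropoietin receptor, at 49.8, 50.4 and 59.8 CPM around CaP and 43.2, 37.2 and 42 CPM around PCL (0.39 ± 0.27). Cell cycle and DNA replication genes had 23 of 27 above 0, a median of 0.079 and 5 ranges apart, all with CaP above, beside 3.99% of all genes. Plk1, a kinase of mitosis, read 85.7, 95.1 and 77.8 CPM around CaP and 67.4, 66.8 and 57.2 CPM around PCL (0.43 ± 0.27), and Cdk1, the kinase that starts mitosis, 0.22 ± 0.25. PCL replicate 1 had the lowest score of that list, -0.193, and without it 14 of 27 were above 0 with a median of 0.007.

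Metabolic and stress genes showed small medians. Hypoxia and glycolysis genes had 23 of 25 above 0 and a median of 0.142, with Car9, a hypoxia-induced carbonic anhydrase, at 0.99 ± 0.50 on levels of 0.424 to 2.43 CPM. Without 1 library each in turn the median of that list ran from -0.083 to 0.328. Oxidative phosphorylation genes had 15 of 23 above 0 (0.034). Ranges were apart with CaP above for 5 of them (3.99% of all genes) and with CaP below for 1 (4.91% of all genes). Ndufs1, a core subunit of respiratory complex I, read 82.5, 80.5 and 75.3 CPM around CaP and 69.1, 66.7 and 63.5 CPM around PCL (0.26 ± 0.13), while Ndufa4, which works in complex IV, read 69.7, 80.5 and 86.7 CPM around CaP and 88, 99.8 and 115 CPM around PCL (-0.35 ± 0.12). Ribosomal protein genes had 6 of 25 above 0 (-0.068) and lysosome genes 18 of 23 (0.047). Without PCL replicate 3 the ribosomal list had 20 of 25 above 0 (0.061). Without PCL replicate 2 the lysosome list had 8 of 23 (-0.047). Heat shock genes had 10 of 17 above 0 (0.034). Hspa8, the constitutive HSP70, read 1132, 691 and 654 CPM around CaP and 649, 586 and 552 CPM around PCL (0.47 ± 0.21), with CaP replicate 1 far above. Immediate early genes had 12 of 24 above 0 (-0.026), the unfolded protein response 10 of 19 (0), sterol and lipid synthesis 9 of 19 (-0.005), iron genes 8 of 16 (0.026), the circadian clock 6 of 15 (-0.014) and the glucocorticoid response 7 of 16 (-0.024). Of the 52 lists, 45 had a median within 0.25 of 0, and over all lists 0 of 827 tested members were called.

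The week 6 difference was set against the week 2 difference between the same scaffolds, which uses other libraries. At week 2, 0 genes were called and 183 (1.55%) had an unadjusted p under 0.05 by edgeR's test, with 6.02% of ranges apart. The change of the difference between the weeks, tested as an interaction, also had 0 genes called (0%), 198 (1.68%) below 0.05 before adjustment and none below 0.9999 after it. DESeq2 called 2 genes for that change, Nxph4 and Pcp4l1, and without PCL week 6 replicate 1 edgeR called 1, Dnase2b. Across genes, which are not independent replicates, the differences at the weeks had a Pearson r of 0.121, and 0.0873 over the 10185 genes with a mean log2 CPM of at least 1. Of the 52 lists, 13 had medians above 0 at both weeks and 11 below 0 at both.

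Foxp3, the transcription factor of regulatory T cells, read 3.41, 2.53 and 2.89 CPM around CaP and 3.35, 3.76 and 4.5 CPM around PCL at week 6 (-0.39 ± 0.29). At week 2 it read 1.64, 2.43 and 3.23 CPM around CaP and 0.69, 0.99 and 1.08 CPM around PCL (1.40 ± 0.31). The change between the weeks was -1.79 ± 0.42, with an unadjusted p of 0.00074 in the edgeR fit that did not hold after adjustment. Wnt5a at week 2 read 2.42, 6.73 and 6.71 CPM around CaP and 8.2, 13.3 and 6.5 CPM around PCL (-0.82 ± 0.58). Its change was 2.96 ± 0.84, and of these 12 libraries the 3 lowest were PCL at week 6 and the highest was PCL at week 2. Gzma, a granzyme of cytotoxic cells, had -0.63 ± 0.43 at week 6 and 1.34 ± 0.48 at week 2. The NK list had medians of -0.16 at week 6 and 0.505 at week 2, the endothelial list -0.347 and 0.276, and the pericyte list -0.727 and 0.279. The erythroid list, with 0.129 and 0.4, was above 0 at both weeks, with 20 of 20 members above 0 at week 2. These changes of list medians were not tested.

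**Figure D5:**
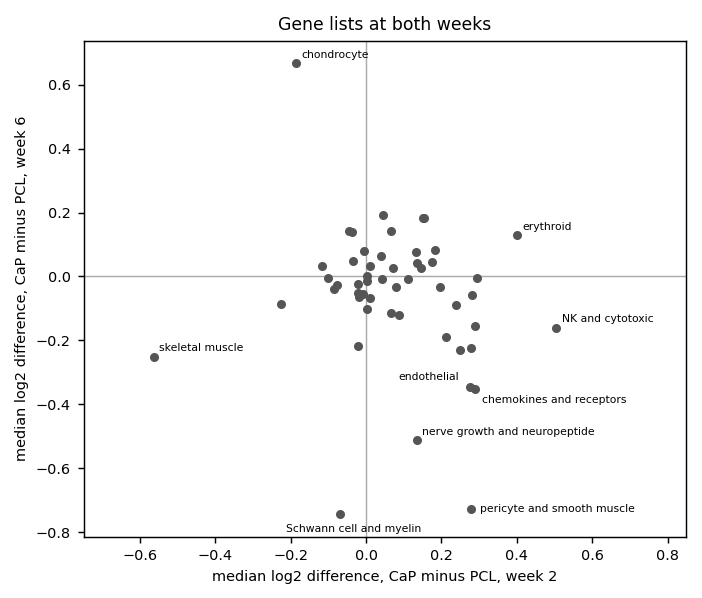
Median log2 difference, CaP minus PCL, of each of the 52 gene lists at week 2 (x axis) and week 6 (y axis), 1 point per list, with names for the lists farthest from 0. Most points lie near the origin, and the 3 lists farthest out at week 6, Schwann cell at -0.743, pericyte at -0.727 and chondrocyte at 0.667, have week 2 medians of -0.07, 0.279 and -0.186.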

How the data were processed

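The authors deposited a table of raw read counts per gene symbol for all 18 libraries, and a normalised table that was not used here. Per the submitters' processing notes, the tools were bcl2fastq 2.20.0, STAR 2.7.9a, featureCounts and Subread 2.0.1, with genome build Rnor_6.0. The sources used here do not give annotation or strand setting, so overlapping and antisense genes cannot be told apart.

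Of 17337 symbols, filterByExpr (minimum count 10, minimum total 15) kept 11814, with 99.98% of counts. edgeR 4.0.16 in R 4.3.3 fitted group means over all 18 libraries (TMM, robust quasi-likelihood, 12 residual degrees of freedom, biological coefficient of variation 26%), with Benjamini-Hochberg adjustment over all genes and a threshold of 0.05. CPM used TMM-scaled totals. Library pairs of a group had a chi-square of at least 30.5 per degree of freedom, so none was the same library read again. That does not show that the libraries came from separate rats. Total counts of the 6 libraries were 20686683 to 27186587, and intervals cover the spread between libraries as the fit estimates it.

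The comparison, its lists and its panel were chosen with earlier results of these data known. Of 1041 entries in 53 lists, 959 matched a symbol, 10 an older or other symbol, and 72 none. The 53rd, of sex-linked genes, was used only to look for mislabelled libraries and had 0 to 6 counts for its Y-linked genes. Lists are described by counts and medians, with no set test. Named genes were, in each direction, the 15 largest changes past the threshold or, as none passed, the 10 smallest unadjusted p with a mean log2 CPM (prior count 2) of at least 1 and ranges apart, then a panel of bone and immune genes, and up to 4 genes per list by smallest p. Col2a1 and the genes called only under an alternative were chosen after their values were seen. Alternatives were DESeq2 1.42.0, voom with quality weights in limma 3.58.1, other scaling, no filter, only the groups compared, a replicate block and leaving out each library. The edgeR, DESeq2 and voom fits were run on simulated counts for the week 6 comparison only. The lists, the choice of named genes and the change between weeks were not tried in that way.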

Additional observations from a re-analysis of the deposited data

How the results depend on the processing

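The count of 0 genes called at week 6 held under DESeq2, voom with quality weights, DESeq2 size factors, library totals only, no low-count filter (14628 genes tested) and only the groups compared. At an unadjusted p under 0.05 these gave 352, 2064, 286, 165, 327 and 375 genes, against 304. Smallest adjusted p-values were 0.1632 with DESeq2 and 0.1519 with voom. Leaving out 1 library at a time gave 0 to 1 genes called at week 6 and 0 to 1 for the change between the weeks. The 1 gene was Dnase2b in both, without PCL week 6 replicate 1, with adjusted p of 0.02622 and 0.005801. DESeq2 called 2 genes for the change, Nxph4 (2.48) and Pcp4l1 (-9.24), and the causes were not tested. No list member was called under any setting run. Without ACPC-NP week 2 replicate 3, whose TMM factor of 0.7065 was the lowest, 442 genes had an unadjusted p under 0.05.

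The labels do not say whether replicate numbers pair the libraries. Deviations of same-numbered CaP and PCL libraries at week 6 had r of 0.315, 0.0262 and 0.275, against -0.403 to 0.115 for other pairs. CaP replicate 2 correlated best with PCL replicate 3 (0.115). At week 2 same-numbered pairs had 0.379, -0.0111 and 0.133, against -0.508 to 0.313 for other pairs. With a replicate block 0 genes were called in both comparisons, with 426 at an unadjusted p under 0.05 at week 6, and with the block in only the groups compared 0 were called, with 520.

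Log2 differences of named genes that reversed under an alternative were all far from the threshold. Under voom Ibsp was -0.14, Acan -0.21 and Col2a1 -0.30. With the replicate block Nos2 was -0.0086, and with the block in only the groups compared Ibsp was -0.10 and Acan -0.024. With 1 library left out, ranges were -1.62 to 2.11 for Acan, -3.73 to 4.65 for Col2a1, -1.0 to 0.67 for Ibsp, -0.43 to 0.49 for Bglap, -0.046 to 0.47 for Alpl, -0.33 to 0.29 for Col1a1, -0.073 to 1.36 for Col1a2, -0.54 to 0.25 for Sp7, -0.10 to 0.47 for Acp5, -0.29 to 1.07 for Ctsk, -1.25 to 0.29 for Bmp2, -0.22 to 0.042 for Tgfb1, -0.044 to 0.74 for Cd68, -0.39 to 0.10 for Il10, -0.21 to 0.62 for Nos2 and -1.05 to 0.088 for Prtn3. Of the 90 named genes' values under all alternatives, 1318 kept their direction and 32 reversed. The part of sequencing depth in the width of the intervals was not tested.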
